A study of Mus musculus with 12 samples.

Results

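Oxygen sensing was followed through 10 genes in mouse adipose tissue: the transcription factor genes Hif1a, Epas1 and Arnt, the oxygen sensor genes Egln1 and Egln3, and the target genes Vegfa, Slc2a1, Pdk1, Ldha and Bnip3. They were picked by name, with earlier results of these data known, out of 18193 genes with a probe set of their own on the array. They are read by 26 probe sets, and each gene is represented by its brightest probe set, judged on the mean of the 12 arrays. All 10 main probe sets passed the intensity filter (a mean log2 signal above 7.64), which left 13310 genes for testing. Of the 26 probe sets, 24 passed it, and the other 2 belong to Arnt and Pdk1.

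All samples came from group-housed C57Bl/6 mice that ate chow, with 13% of calories from fat, up to 6 weeks of age. The chow group stayed on it, and the other 2 groups ate a high-fat diet (HFD), with 46% from fat, for 5 or 14 days. Adipose RNA of 4 samples per group was measured, each on an Affymetrix array of its own, and chow is the control of the time course. The fat depot, the sex and how old the chow mice were at the end are not given in the sources used here, so a part of age in a difference was not tested. The labels do not say that the 4 samples of a group are separate animals, so each p measures only the spread between these samples. In bulk tissue, fewer cells of a type and less RNA per cell cannot be told apart.

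The hypoxia-inducible factors are pairs of an alpha subunit, made from Hif1a or Epas1 (HIF-2 alpha), and the shared beta subunit made from Arnt. In the presence of oxygen the prolyl hydroxylases made from Egln1 and Egln3 mark the alpha subunits for destruction through the VHL ubiquitin ligase. At low oxygen the alpha subunits persist and the pair binds a short DNA core beside target genes for blood vessel growth, glucose uptake, glycolysis and mitochondrial turnover. Since much of this control acts on the protein, the Hif1a transcript is no measure of HIF-1 alpha protein. Expanding adipose tissue has been described as short of oxygen, which is the background to following these genes over a high-fat diet.

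The core bound by the factors is ACGTG or GCGTG, read on either strand. RefSeq promoter sequences (GRCm38.p6) were at hand for 9 of the 10 genes, Epas1 being the other, with 12 start sites in all. A core lay within the 250 bases before 10 of these 12 start sites (83.3%), and before 38.6% of the 32851 start sites in that table. Matches that overlap were counted as 1 site, such as CACGTG, which reads ACGTG on both strands and is also the E-box bound by other factors. The stretches shown hold 4, 2 and 1 sites before a start and a close pair of sites, to let the cores be seen in place. The first 3 end at the base before the start site and are written 5′ to 3′ along the gene, with cores in capitals. Bnip3 holds 4 sites, the nearest of which begins 35 bases before the start (chr7:138909507-138909756, minus strand):
Bnip3: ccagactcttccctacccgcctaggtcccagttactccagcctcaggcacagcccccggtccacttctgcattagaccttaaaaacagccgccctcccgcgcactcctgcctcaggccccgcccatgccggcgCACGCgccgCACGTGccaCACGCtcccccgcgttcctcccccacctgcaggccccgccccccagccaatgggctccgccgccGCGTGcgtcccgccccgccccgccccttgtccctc

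Slc2a1 holds 2 sites, at 61 and 36 bases before its start (chr4:119108495-119108744, plus strand):
Slc2a1: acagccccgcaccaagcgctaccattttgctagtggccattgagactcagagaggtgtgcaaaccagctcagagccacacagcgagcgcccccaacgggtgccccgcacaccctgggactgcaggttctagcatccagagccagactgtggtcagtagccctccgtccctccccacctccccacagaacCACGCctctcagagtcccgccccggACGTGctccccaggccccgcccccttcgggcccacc

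Egln3 holds 1 site, 229 bases before its start (chr12:54203875-54204124, minus strand):
Egln3: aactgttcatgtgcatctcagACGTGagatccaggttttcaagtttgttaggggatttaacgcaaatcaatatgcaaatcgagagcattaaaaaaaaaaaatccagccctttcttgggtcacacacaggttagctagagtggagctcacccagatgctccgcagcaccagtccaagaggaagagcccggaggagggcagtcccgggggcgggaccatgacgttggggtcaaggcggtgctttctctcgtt

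The first Ldha start site has 3 sites, at 145, 48 and 34 bases before it. At least 3 sites were found before 4.65% of all start sites. The 30 bases around the nearer pair are shown here (chr7:46845748-46845777, plus strand):
Ldha: ccagcctaCACGTGggttcccgCACGTccg

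Pdk1 holds 1 site before its first start site and 0 before the second. Vegfa holds 0 before its first and 2 before its second. Such a match is a description of letters only.

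Arrays of the same group differed in the tissues they held. Adipocyte genes were high in every array, with 8 of 10 listed markers on probe sets of their own and a mean from 13.44 to 14.00 log2, so the label of adipose tissue was borne out. Of 10 epididymis markers 8 were on probe sets of their own and 4 passed the filter. Their mean ran from 7.05 to 7.71 in chow and stood at 8.95, 9.14 and 9.35 in 5-day arrays 1 to 3, 7.05 in 5-day array 4, 7.14 to 7.35 in 14-day arrays 1 to 3 and 9.82 in 14-day array 4. The rise of the mean came from Spink8, Adam7 and Lcn5, which reached 14.96, 13.89 and 14.54 in that array. In 5-day arrays 1 to 3 Spink8 ran from 14.28 to 14.45, Adam7 from 13.1 to 13.3 and Lcn5 from 8.44 to 11.05. Lcn5 also stood at 8.78 in chow array 3. Gpx5 stayed between 7.82 and 8.52 in all 12. Adam28, Lcn8, Lcn9 and Rnase10, all under the filter, stayed between 6.45 and 7.24. Arrays said below to hold epididymis transcripts are those high in Spink8 and Adam7. The mean of 7 smooth muscle markers was 13.20 and that of 9 macrophage markers 10.11 in 14-day array 4, against 9.62 to 10.22 and 11.46 to 11.71 in chow. The mean of 9 endothelial markers was 11.46 in 5-day array 4 and lay between 10.21 and 10.96 elsewhere. In 5-day array 4 the 3′ probe set of pyruvate carboxylase exceeded the 5′ one by 2.83, a sign of RNA quality that ran from 1.59 to 2.18 in the other arrays. In that array the same difference was 0.272 for Gapdh and 0.504 for actin, below the 0.276 and 0.547 of 14-day array 2. For transferrin receptor it was 1.546, the lowest of the 12 arrays, so the controls did not run alike. The mean of 8 liver markers ran from 7.87 to 11.99 in chow, from 9.14 to 13.20 at 5 days and from 8.86 to 12.76 at 14 days, and that of skeletal muscle markers stayed between 8.14 and 9.16 except for chow array 3 (12.17) and 5-day array 2 (11.82). Mesothelium markers averaged 10.51 to 10.80 in chow, 9.77 to 10.28 at 5 days and 9.48 to 10.63 at 14 days. The 2 red blood cell markers on probe sets of their own, 1 of them above the filter, averaged 8.12 to 8.66 in chow. They averaged 7.95 to 8.44 at 5 days and 7.67 to 8.01 at 14 days, where every array lay below every chow array. The part of these tissues in the results below was not tested beyond the values given.

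**Figure D1:**
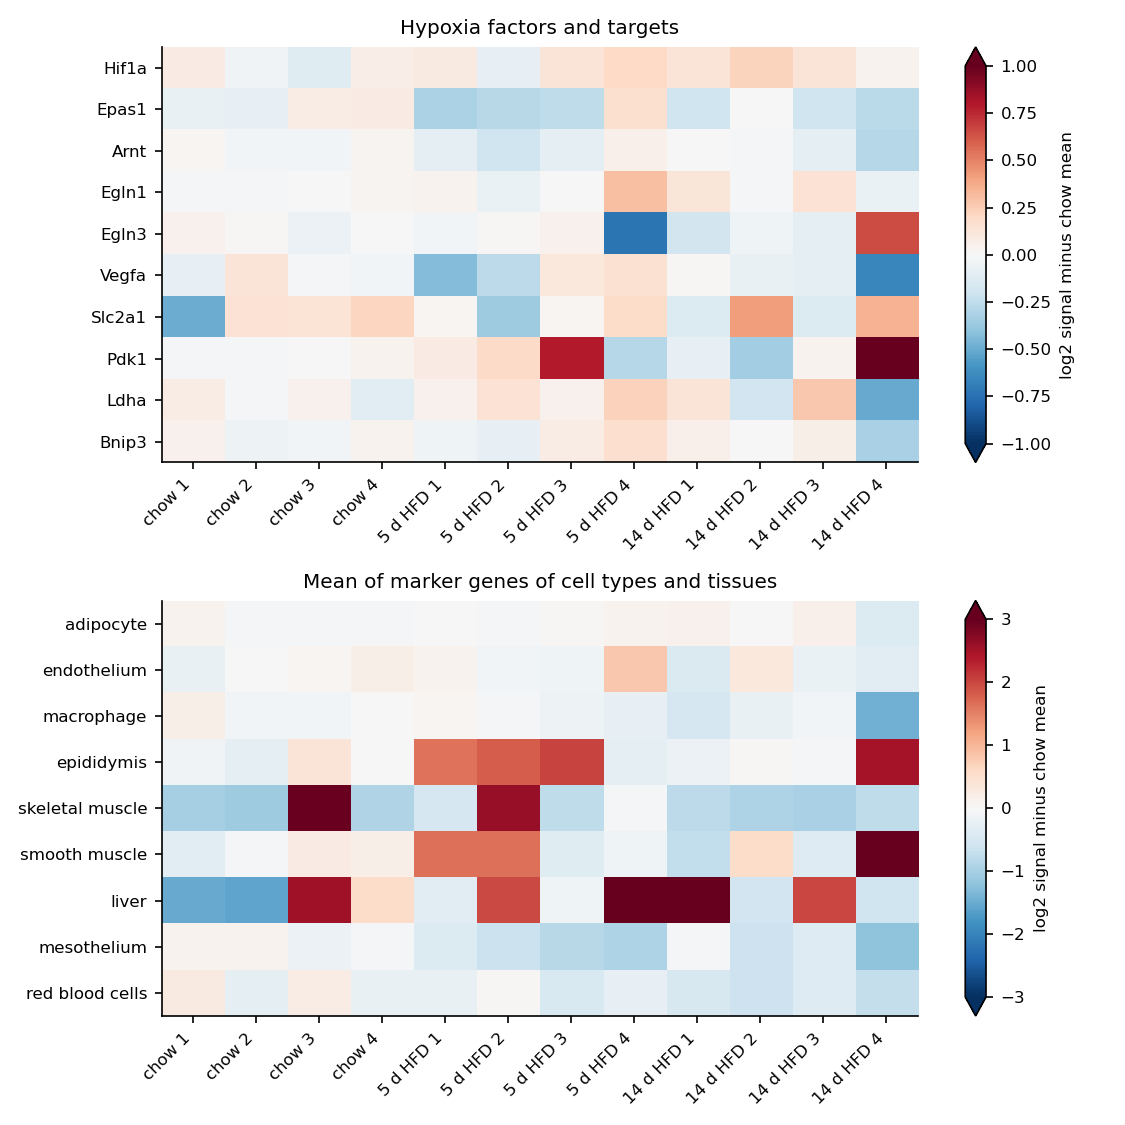
Log2 signal minus the chow mean of the same row, for the 10 hypoxia genes (top, colour scale from -1 to 1) and for the mean of each marker list (bottom, -3 to 3), with 1 column per array and values past the scale drawn in its end colour. The strongest colours among the hypoxia genes lie in 5-day array 4 and 14-day array 4, and Pdk1 is also high in 5-day array 3 (0.79 above chow).

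Read by their main probe sets, none of the 10 genes passed the test after 5 or 14 days of HFD, and every 95% confidence interval included 0. At 14 days against chow Hif1a stood 0.13 higher and Vegfa 0.20 lower, and at 5 days Pdk1 stood 0.19 higher and Egln3 0.18 lower. Of the 10 genes 5 were higher and 5 lower at 5 days, with a median log2 difference of -0.0040, and again 5 and 5 at 14 days, with a median of -0.0051. Over all genes tested 49.5% were higher at 5 days (median -0.0015) and 55.2% at 14 days (median 0.016). At 14 against 5 days 4 were higher and 6 lower, with a median of -0.018, against 56.0% higher and a median of 0.012 over all genes. The comparisons with chow use the same 4 chow arrays.

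By limma at a Benjamini-Hochberg adjusted p under 0.05, 0 of the 10 genes were called in each of the 3 comparisons, where 0% of the 13310 genes tested were called as well (1345, 1061 and 340 genes had an unadjusted p under 0.05). At an unadjusted p under 0.05, 0 of the 10 were higher and 0 lower at 5 days, where 4.43% and 5.67% of all genes were. The same count was 0 and 0 at 14 days (3.67% and 4.31% of all genes) and 0 and 0 at 14 against 5 days (1.77% and 0.789%). In none of the 10 main probe sets did all 4 arrays of 1 group lie above all 4 of another. Dimmer probe sets of Epas1, Arnt and Pdk1 did show such a gap, given below, and its share over all probe sets was not counted. Over all genes such a gap was found as higher in 6.49% and as lower in 4.77% at 5 days, in 2.37% and 2.26% at 14 days, and in 0.646% and 0.278% at 14 against 5 days. The widest 95% confidence interval against chow was that of Pdk1, from -0.42 to 0.81 at 5 days, and the narrowest was that of Hif1a, from -0.072 to 0.24.

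**Figure D2:**
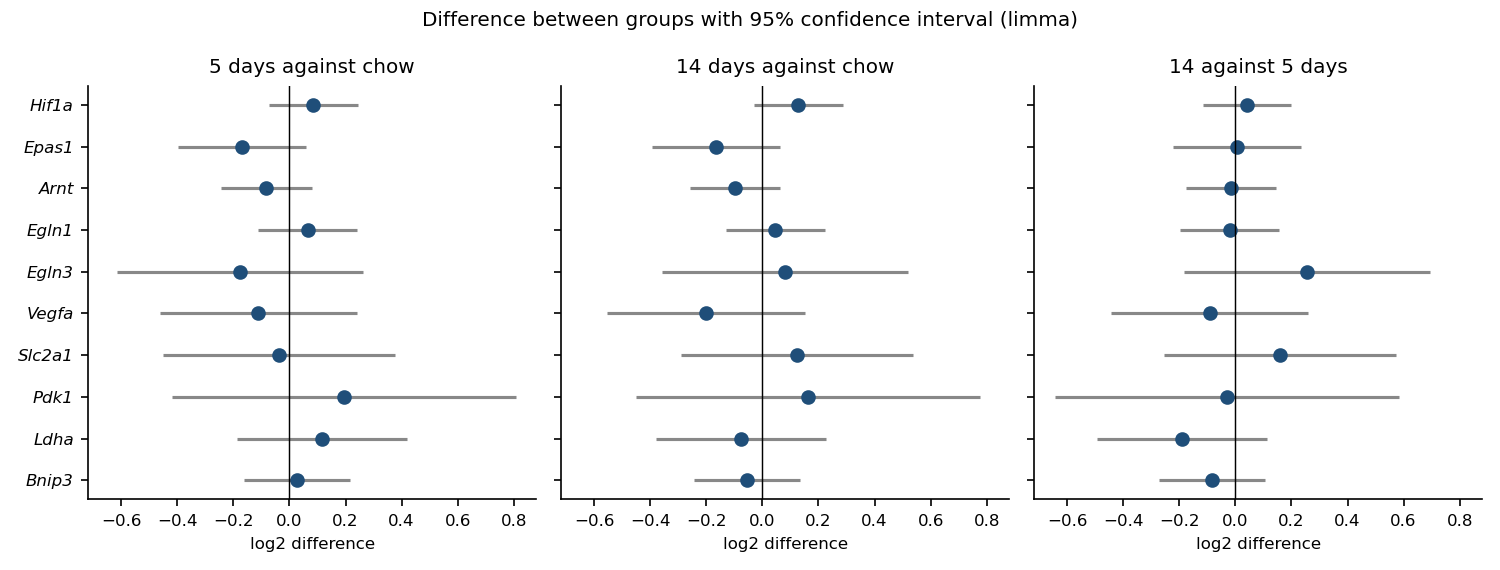
Log2 difference (points) with its 95% confidence interval from limma (lines) for the main probe set of each gene in the 3 comparisons, with 0 marked by the vertical line. Every interval crosses 0, and those of Hif1a, Arnt, Egln1 and Bnip3 are narrow beside that of Pdk1.

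Hif1a, the oxygen-regulated alpha subunit, is located on chromosome 12 (73901324 to 73947554, GRCm38.p6) and has 4 probe sets. Its main probe set, 1427418_a_at, stood at 12.23, 12.12, 12.03 and 12.22 in chow arrays 1 to 4, at 12.24, 12.07, 12.28 and 12.35 in the 5-day arrays and at 12.28, 12.37, 12.28 and 12.18 in the 14-day arrays. The 14-day arrays all lay above chow arrays 2 and 3, but 14-day array 4 was lower than chow arrays 1 and 4, so the groups overlap. Group means were 12.15 ± 0.09 in chow, 12.24 ± 0.12 at 5 days and 12.28 ± 0.08 at 14 days (SD, n = 4). The differences from chow were 0.086 ± 0.07 at 5 days (limma adjusted p = 0.733) and 0.13 ± 0.07 at 14 days (adjusted p = 0.703), here and below with the SE.

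The other Hif1a probe sets did not run alike. Probe set 1416035_at stood at 9.59, 9.47, 9.61 and 9.51 in chow arrays 1 to 4, at 9.56, 9.38, 9.60 and 9.93 in the 5-day arrays and at 9.83, 9.74, 9.83 and 9.40 in the 14-day arrays. It was higher than chow in 14-day arrays 1 to 3 and lower than every chow array in 14-day array 4. Probe set 1448183_a_at stood at 9.15, 9.15, 8.88 and 8.88 in chow arrays 1 to 4, at 9.12, 9.10, 8.92 and 8.53 in the 5-day arrays and at 8.88, 8.64, 8.88 and 8.65 in the 14-day arrays. Its 14-day arrays lay at or near the bottom of the chow range or below it. Probe set 1431981_at, near the filter, stood at 7.94, 7.78, 7.82 and 7.66 in chow arrays 1 to 4, at 7.65, 7.95, 7.73 and 7.27 in the 5-day arrays and at 7.76, 7.81, 7.64 and 7.48 in the 14-day arrays. In 5-day array 4, 1416035_at had its highest value of the 12 arrays while 1431981_at and 1448183_a_at had their lowest.

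At 14 days against chow the Hif1a probe sets differed by 0.16 ± 0.12 (1416035_at), 0.13 ± 0.07 (1427418_a_at), -0.12 ± 0.13 (1431981_at) and -0.25 ± 0.13 (1448183_a_at) in the limma fit of every probe set, with adjusted p = 0.898, 0.848, 0.918 and 0.827. At 5 days they differed by 0.073 ± 0.12, 0.086 ± 0.07, -0.15 ± 0.13 and -0.096 ± 0.13 in that order. With the mean of the 4 probe sets in place of the brightest, the direction of Hif1a turned, to -0.021 at 5 days and -0.022 at 14 days. Unequal change was tested on the log2 difference between probe sets within each array, for 6 pairs in 3 comparisons. The 14-day change of 1416035_at exceeded that of 1448183_a_at by 0.41 and that of 1431981_at by 0.28, and the change of 1427418_a_at exceeded that of 1448183_a_at by 0.38. In these 3 tests the groups did not overlap and the two-sided exact permutation p was 0.0286, the smallest that the 70 labelings allow. None of the 18 tests passed when adjusted (lowest adjusted p = 0.171). A test at that smallest p can pass only if most of the 18 reach it too, so the adjusted result does not decide on unequal change. The files do not say which part of the transcript each probe set reads.

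**Figure D3:**
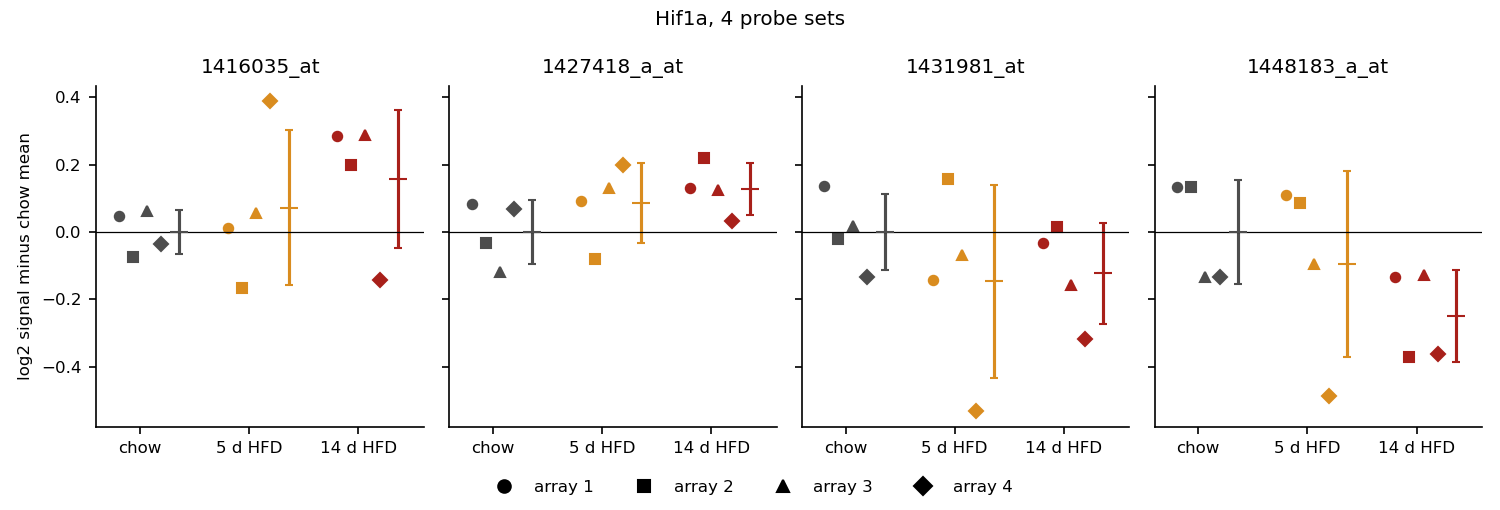
Log2 signal of the 4 Hif1a probe sets minus the chow mean of the same probe set, with 1 symbol per array and bars for mean ± SD (n = 4). At 14 days the left pair averages 0.16 and 0.13 above chow and the right pair 0.12 and 0.25 below it.

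Epas1, the alpha subunit HIF-2 alpha that is abundant in endothelium and adipocytes, is located on chromosome 17 (86753864 to 86833410). Its main probe set, 1435436_at, stood at 13.43, 13.43, 13.58 and 13.59 in chow arrays 1 to 4, at 13.19, 13.23, 13.26 and 13.67 in the 5-day arrays and at 13.31, 13.51, 13.31 and 13.24 in the 14-day arrays. 5-day arrays 1 to 3 and 14-day arrays 1, 3 and 4 lay below all chow arrays, while 5-day array 4 was the highest of the 12. The differences were -0.17 ± 0.10 at 5 days (limma adjusted p = 0.602) and -0.17 ± 0.10 at 14 days (adjusted p = 0.727). In 5-day array 4 endothelial markers were also at their highest (11.46).

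Epas1 was called in 2 alternative fits. Without the HFD arrays numbered 4 the 5-day difference was -0.28 ± 0.06 and passed (limma adjusted p = 0.0303), in a fit that called 6.62% of all genes. The 5-day arrays left in that fit all hold epididymis transcripts and the chow arrays do not. Diet and these transcripts cannot be told apart there. With array weights, where 15.1% and 22.4% of all genes were called, the Epas1 difference was -0.28 ± 0.06 at 5 days (adjusted p = 0.0103) and -0.20 ± 0.06 at 14 days (adjusted p = 0.0399). Leaving out a single array gave no call. With the endothelial marker mean as a covariate, chosen after the data were seen, it was -0.25 ± 0.05 at 5 days and -0.098 ± 0.05 at 14 days (adjusted p = 0.117 and 0.686). Over all 16 alternatives other than single arrays left out, the 5-day difference ran from -0.284 to -0.0379. The 14-day difference ran from -0.264 to -0.0975 over the same alternatives. The second Epas1 probe set, 1449888_at, stood at 10.64, 10.63, 10.68 and 10.53 in chow arrays 1 to 4, at 10.35, 10.47, 10.33 and 10.26 in the 5-day arrays and at 10.21, 10.20, 10.55 and 10.07 in the 14-day arrays. All 5-day arrays lay below all chow arrays, 5-day array 4 included, and 14-day array 3 alone reached the chow range. It differed by -0.27 ± 0.10 at 5 days (limma adjusted p = 0.504) and -0.36 ± 0.10 at 14 days (adjusted p = 0.622).

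Arnt, the shared beta subunit on chromosome 3 (95434367 to 95497240), has 5 probe sets. The main one, 1419996_s_at, carries the suffix that the array maker gives to probes shared with other transcripts, so its signal may not be of Arnt alone. It stood at 11.03, 10.99, 10.98 and 11.04 in chow arrays 1 to 4, at 10.92, 10.81, 10.92 and 11.06 in the 5-day arrays and at 11.01, 10.996, 10.92 and 10.72 in the 14-day arrays. The lowest value of the 12 arrays was that of 14-day array 4 and the highest that of 5-day array 4. It differed by -0.082 ± 0.07 at 5 days and -0.098 ± 0.07 at 14 days (limma adjusted p = 0.754 and 0.778).

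Of the 4 dimmer Arnt probe sets, 1425064_at and 1421721_a_at differed from chow by more than the main one and 1437042_at and 1449696_at by less. Probe set 1425064_at stood at 8.97, 8.87, 8.83 and 8.80 in chow arrays 1 to 4, at 8.60, 8.76, 8.73 and 8.73 in the 5-day arrays and at 8.71, 8.73, 8.67 and 8.41 in the 14-day arrays. Every HFD array lay below every chow array in it, with differences of -0.16 ± 0.08 at 5 days and -0.24 ± 0.08 at 14 days (limma adjusted p = 0.623 and 0.708). Probe set 1421721_a_at differed by -0.19 ± 0.10 and -0.24 ± 0.10, 1437042_at by -0.065 ± 0.13 and -0.068 ± 0.13, and 1449696_at, under the filter, by 0.042 ± 0.10 and -0.054 ± 0.10. All 5-day arrays of 1421721_a_at (9.39 to 9.63) lay below all its chow arrays (9.65 to 9.85).

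Over the 26 probe sets of the 10 genes, 15 were lower and 11 higher at 5 days, and again 15 and 11 at 14 days. Limma called 0 of 26 in each comparison, as it did 0% of the 45037 probe sets tested. At an unadjusted p under 0.05, 1 of the 26 was lower at 5 days (1449888_at of Epas1) and 0 higher, where 5.3% and 3.07% of all probe sets were. At 14 days 3 were lower (1449888_at of Epas1, 1421721_a_at and 1425064_at of Arnt) and 0 higher, against 3.84% and 2.42%. At 14 against 5 days 0 were lower and 0 higher, against 0.748% and 1.51%. Probe sets of 1 gene read the same RNA and are not independent.

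Egln1 makes the main prolyl hydroxylase for HIF-1 alpha and is located on chromosome 8 (124908587 to 124949254). Its main probe set, 1423785_at, stood at 11.08, 11.08, 11.08 and 11.11 in chow arrays 1 to 4, at 11.12, 11.02, 11.08 and 11.39 in the 5-day arrays and at 11.20, 11.07, 11.23 and 11.02 in the 14-day arrays. Chow values ran from 11.08 to 11.11, and 5-day array 4 was the highest of the 12. The differences were 0.066 ± 0.08 at 5 days and 0.046 ± 0.08 at 14 days (limma adjusted p = 0.826 and 0.905), and the 5-day difference was -0.013 without 5-day array 4. Its second probe set, 1451110_at, differed by 0.032 ± 0.10 and -0.074 ± 0.10.

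Egln3, the hydroxylase that is itself induced by hypoxia, lies on chromosome 12 (54178981 to 54203874). The main Egln3 probe set, 1418648_at, stood at 8.34, 8.31, 8.25 and 8.31 in chow arrays 1 to 4, at 8.28, 8.31, 8.35 and 7.57 in the 5-day arrays and at 8.12, 8.26, 8.20 and 8.95 in the 14-day arrays. In 10 arrays it ran from 8.12 to 8.35, while 5-day array 4 stood at 7.57 and 14-day array 4 at 8.95. The differences were -0.18 ± 0.20 at 5 days and 0.081 ± 0.20 at 14 days (limma adjusted p = 0.807 and 0.933). Probe set 1418649_at had its lowest and highest values, 7.74 and 8.67, in the same 2 arrays.

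The 2 arrays in which Egln3 stood apart also differed in epididymis markers, whose mean was 7.05 in 5-day array 4 and 9.82 in 14-day array 4. Among these markers Lcn5 stood at 8.44, 9.13 and 11.05 in 5-day arrays 1 to 3 and at 14.54 in 14-day array 4. Egln3 stood at 8.28 to 8.35 in 5-day arrays 1 to 3, where the marker mean was 8.95 to 9.35. It stood at 8.31 in chow array 2, where the marker mean was 7.05. With that mean as a covariate Egln3 was called in 2 comparisons, at -0.57 ± 0.08 for 5 days against chow (limma adjusted p = 0.0119) and 0.48 ± 0.07 for 14 against 5 days (adjusted p = 0.0309), in fits that called 2.51% and 0.165% of all genes. Without the HFD arrays numbered 4 the 5-day difference was 0.0089 and the 14-day difference -0.11. The cause of the Egln3 values in 5-day array 4 and 14-day array 4 was not tested.

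Vegfa, the main growth factor for blood vessels, is located on chromosome 17 (46016993 to 46032377). Signal of 1420909_at, its main probe set, stood at 11.63, 11.84, 11.70 and 11.68 in chow arrays 1 to 4, at 11.28, 11.45, 11.82 and 11.86 in the 5-day arrays and at 11.72, 11.64, 11.62 and 11.06 in the 14-day arrays. 5-day arrays 1 and 2 and 14-day array 4 lay clearly below the chow range, and the other HFD arrays lay within or near it. The differences were -0.11 ± 0.16 at 5 days and -0.20 ± 0.16 at 14 days (limma adjusted p = 0.858 and 0.793). Without 14-day array 4 the 14-day difference was -0.052. Probe set 1451959_a_at differed by -0.12 ± 0.13 and -0.25 ± 0.13.

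Slc2a1 makes the glucose transporter GLUT1 and is located on chromosome 4 (119108745 to 119137330). The brightest Slc2a1 probe set, 1434773_a_at, stood at 8.87, 9.51, 9.50 and 9.58 in chow arrays 1 to 4, at 9.38, 9.01, 9.38 and 9.55 in the 5-day arrays and at 9.23, 9.78, 9.23 and 9.71 in the 14-day arrays. Chow array 1 was the lowest of the 12, and 14-day arrays 2 and 4 were the highest. The differences were -0.036 ± 0.19 at 5 days and 0.12 ± 0.19 at 14 days (limma adjusted p = 0.964 and 0.890). The 2 other probe sets differed by -0.11 ± 0.13 and -0.11 ± 0.11 at 5 days and by 0.046 ± 0.13 and -0.085 ± 0.11 at 14 days, so the 3 did not share a direction at 14 days. Without chow array 1 the main difference was -0.20 at 5 days and -0.042 at 14 days.

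Pdk1, the kinase that holds pyruvate back from oxidation within the mitochondria, is located on chromosome 2 (71873215 to 71903858). Its main probe set, 1423747_a_at, stood at 10.40, 10.38, 10.41 and 10.44 in chow arrays 1 to 4, at 10.49, 10.60, 11.20 and 10.12 in the 5-day arrays and at 10.33, 10.06, 10.44 and 11.45 in the 14-day arrays. The chow arrays ran from 10.38 to 10.44, and 14-day array 4 and 5-day array 3 stood 1.04 and 0.79 above the chow mean. Both hold epididymis transcripts, as do 5-day arrays 1 and 2, which stood 0.081 and 0.19 above it. Among these transcripts Lcn5 stood at 8.44, 9.13 and 11.05 in 5-day arrays 1 to 3 and at 14.54 in 14-day array 4. What part epididymal tissue has in the Pdk1 values was not tested. The differences were 0.19 ± 0.28 at 5 days and 0.16 ± 0.28 at 14 days (limma adjusted p = 0.856 and 0.901), and the 14-day difference was -0.13 without 14-day array 4. The 5-day difference was -0.0050 without 5-day array 3. All 4 probe sets had their highest value in 14-day array 4, and their 5-day differences ran from 0.16 to 0.27. In 1435836_at all 4 5-day arrays (9.50 to 9.75) lay above all chow arrays (9.18 to 9.46), with a difference of 0.24 ± 0.18 (limma adjusted p = 0.790).

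Ldha makes the A subunit of lactate dehydrogenase and is located on chromosome 7 (46842274 to 46855627). Its only probe set, 1419737_a_at, stood at 13.71, 13.62, 13.68 and 13.53 in chow arrays 1 to 4, at 13.68, 13.78, 13.68 and 13.87 in the 5-day arrays and at 13.77, 13.45, 13.90 and 13.13 in the 14-day arrays. The 14-day arrays held both the highest value (array 3) and the lowest (array 4). The differences were 0.12 ± 0.14 at 5 days and -0.075 ± 0.14 at 14 days (limma adjusted p = 0.819 and 0.908), and 0.069 at 14 days without 14-day array 4.

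Bnip3 makes a mitochondrial protein that promotes removal of mitochondria and is located on chromosome 7 (138890836 to 138909506). Its only probe set, 1422470_at, stood at 14.45, 14.36, 14.38 and 14.45 in chow arrays 1 to 4, at 14.37, 14.33, 14.49 and 14.58 in the 5-day arrays and at 14.46, 14.41, 14.47 and 14.08 in the 14-day arrays. In 11 arrays it ran from 14.33 to 14.58, and 14-day array 4 stood apart at 14.08. The differences were 0.028 ± 0.09 at 5 days and -0.056 ± 0.09 at 14 days (limma adjusted p = 0.936 and 0.890), and 0.035 at 14 days without 14-day array 4 and -0.018 at 5 days without 5-day array 4.

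**Figure D4:**
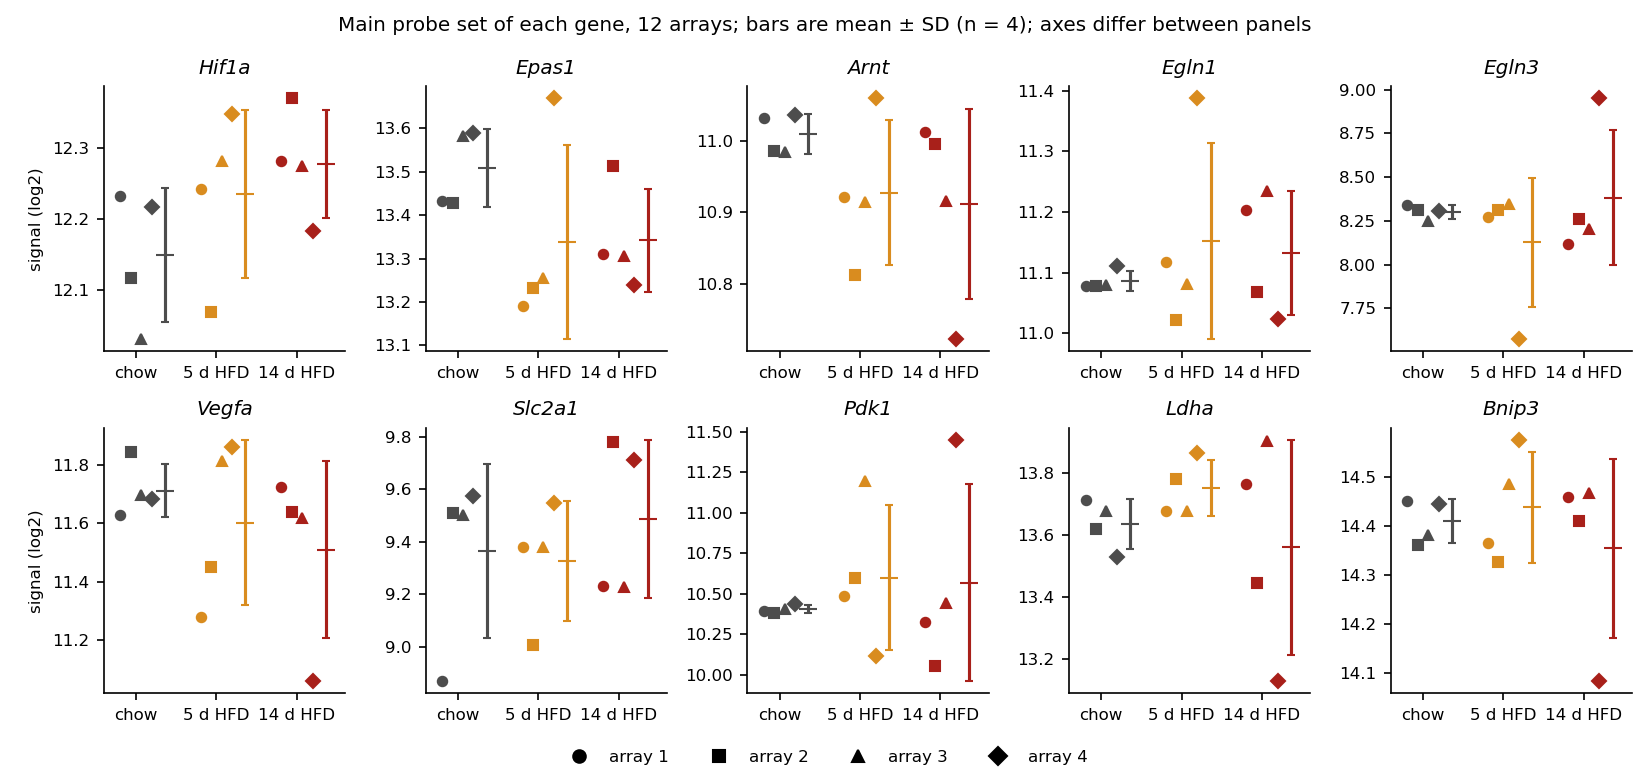
Log2 signal of the main probe set of each gene by group, with 1 symbol per array and bars for mean ± SD (n = 4), on axes that differ between panels. The arrays numbered 4 (diamonds) of the HFD groups lie at the edges in most panels, such as 7.57 and 8.95 for Egln3.

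At 14 against 5 days the largest differences were those of Egln3 (0.26 ± 0.20), Ldha (-0.19 ± 0.14), and Slc2a1 (0.16 ± 0.19). The remaining 7 lay between -0.092 and 0.042. All 10 had limma adjusted p = 0.999, and without the HFD arrays numbered 4 Egln3 stood at -0.12.

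The extremes of the 10 genes gathered in few arrays. 14-day array 4 held the lowest value of the 12 arrays for 4 genes (Arnt, Vegfa, Ldha and Bnip3) and the highest for 2 (Egln3 and Pdk1). 5-day array 4 held the highest for 5 (Epas1, Arnt, Egln1, Vegfa and Bnip3) and the lowest for Egln3. Over the 13310 genes tested, 14-day array 4 was an extreme for 49.3% and 5-day array 4 for 32.1%, against 6 of 10 in each here. Spread within groups was lowest for Hif1a and Arnt (SD 0.098 for both, at the 25.0th and 25.3rd percentile of all genes tested) and highest for Pdk1 (0.44, at the 93.9th).

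Pairs of the 10 genes were correlated over the 12 arrays, 45 pairs in all. By Pearson's r 11 pairs passed when adjusted over the 45 (permutation test with 100000 resamples) and by Spearman's rho 0 did. Egln1 and Egln3 ran opposite to each other, with r = -0.82 (permutation p = 0.00018, adjusted 0.0081) and rho = -0.69 (permutation p = 0.015, adjusted 0.10). Leaving out the 2 arrays farthest from the median of Egln1 gave r = -0.61. Vegfa and Bnip3 had r = 0.83 (permutation p = 0.0018, adjusted 0.034) and rho = 0.57 (permutation p = 0.059, adjusted 0.23), with r = 0.55 without the 2 arrays farthest for Vegfa. Epas1 and Arnt had r = 0.73 (permutation p = 0.0055, adjusted 0.038) and rho = 0.82 (permutation p = 0.0018, adjusted 0.061), with r = 0.63 without the 2 arrays farthest for Epas1. For Egln3 and Bnip3 r went from -0.86 to -0.18 without the 2 arrays farthest for Egln3, so that relation rests on those arrays. Of the other 7 pairs, leaving out 2 arrays in the same way moved r from 0.82 to 0.35 for Arnt and Bnip3, from 0.78 to 0.41 for Arnt and Vegfa, from 0.78 to 0.39 for Ldha and Bnip3 and from 0.74 to 0.44 for Egln3 and Pdk1. It moved r from -0.77 to -0.34 for Egln3 and Ldha, from -0.72 to -0.47 for Arnt and Egln3 and from -0.78 to -0.62 for Arnt and Pdk1.

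As a description, the genes whose signal followed each gene most closely within groups were found over the 12 arrays, each group centred on its mean. Each was picked for the highest r among all genes tested, so a high r comes in part from that choice. For Hif1a they were Cbfa2t2 (r = 0.94) and Zbtb1 (r = 0.94). For Epas1 they were Gpr182 (r = 0.99) and Gpihbp1 (r = 0.98), and for Arnt 5031426D15Rik and C1qtnf1 (both r = 0.98). Egln1 was nearest to Nckap1 (r = 0.99) and Emc3 (r = 0.975), and Egln3 to Cd52 (r = 0.996) and Gm4988 (r = 0.99). Egln3 stood far from its other values in 5-day array 4 (7.57) and 14-day array 4 (8.95), and r without both was not computed. Vegfa was nearest to Gzf1 (r = 0.93) and Zfand6 (r = 0.92), with 0.86 and 0.83 without 14-day array 4. Slc2a1 was nearest to Ing1 (r = 0.97) and Agrn (r = 0.97), and Pdk1 to Rangap1 and Man2b1 (both r = 0.98). Ldha was nearest to Uqcrc1 and Pdhx (both r = 0.99), and Bnip3 to Fzd4 (r = 0.99) and Camk2d (r = 0.98).

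Other genes of the pathway were read from a list of 61, of which 48 were tested. Limma called 0 of 48 in each comparison. At 5 days 30 were higher and 18 lower (median 0.049), with 3 higher and 2 lower at an unadjusted p under 0.05, and at 14 days 28 were higher and 20 lower (median 0.018), with 1 and 1. At 14 against 5 days 15 were higher and 33 lower (median -0.056), with 0 and 1. Over all genes tested 49.5%, 55.2% and 56.0% were higher in these 3 comparisons, with medians of -0.0015, 0.016 and 0.012, and 4.43%, 3.67% and 1.77% were higher and 5.67%, 4.31% and 0.789% lower at an unadjusted p under 0.05. Groups did not overlap for 7 genes higher and 2 lower at 5 days, for 1 and 1 at 14 days, and for 0 and 0 at 14 against 5 days, beside the shares over all genes of 6.49% and 4.77%, 2.37% and 2.26%, and 0.646% and 0.278%. At 5 days the 7 were Hif1an, Hk1, Pfkfb4, Tpi1, Pgk1, Pgam1 and Slc2a3 and the 2 were P4ha1 and Bhlhe40, and at 14 days they were Hk2 and P4ha1.

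Of the 19 genes listed for glycolysis and acid export 13 were tested, all of them for glucose uptake or glycolysis, and these held 10 of 13 higher at 5 days (median 0.14) and 11 of 13 at 14 days (median 0.15), beside medians of -0.0015 and 0.016 over all genes tested, and 0 passed. Pfkfb4, which makes a regulator of phosphofructokinase, stood at 9.43, 9.26, 9.21 and 9.28 in chow arrays 1 to 4, at 9.81, 9.83, 9.69 and 10.32 in the 5-day arrays and at 9.80, 9.24, 10.30 and 9.19 in the 14-day arrays. All 5-day arrays and 14-day arrays 1 and 3 lay above all chow arrays, with differences of 0.62 ± 0.22 and 0.34 ± 0.22 (limma adjusted p = 0.393 and 0.734). The triosephosphate isomerase gene Tpi1 stood at 13.07, 13.001, 13.07 and 12.92 in chow arrays 1 to 4, at 13.36, 13.47, 13.28 and 13.53 in the 5-day arrays and at 13.43, 12.99, 13.63 and 12.90 in the 14-day arrays. It had the same arrays above chow and differed by 0.40 ± 0.14 and 0.22 ± 0.14 (adjusted p = 0.391 and 0.727). The phosphofructokinase gene Pfkl differed by 0.22 ± 0.09 at 5 days, the phosphoglycerate kinase gene Pgk1 by 0.20 ± 0.09 at 14 days and the hexokinase gene Hk2 by 0.15 ± 0.07 at 14 days (adjusted p = 0.454, 0.623 and 0.625). Pgam1, the phosphoglycerate mutase gene, differed by 0.16 ± 0.09 at 14 days (adjusted p = 0.692). Hk1, another hexokinase gene, is named outside the rule because it was called at 5 days in the fit without 14-day array 4, where it differed by 0.48 ± 0.09 (limma adjusted p = 0.0404) and 0.924% of all genes were called. It stood at 10.69 to 10.82 in 5-day arrays 1 to 3, at 10.57 in 5-day array 4 and at 11.48 in 14-day array 4, against 10.03 to 10.36 in the others, so it was highest in the arrays that hold epididymis transcripts. The glucose transporter gene Slc2a3 was highest in the same arrays, at 12.09 to 12.30 in 5-day arrays 1 to 3 and 12.75 in 14-day array 4. It stood at 12.01 in 5-day array 4 and at 11.53 to 11.85 in the others. With array weights Pfkfb4 and Tpi1 were called at both 5 days (0.54 ± 0.13 and 0.37 ± 0.08, adjusted p = 0.0193 and 0.0120) and 14 days (0.59 ± 0.13 and 0.43 ± 0.08, adjusted p = 0.0137 and 0.00955), where 15.1% and 22.4% of all genes were called.

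Matrix genes held 1 of 4 higher at 5 days (median -0.21) and 1 of 4 at 14 days (median -0.18). P4ha1, a subunit of the collagen prolyl hydroxylase, stood at 9.70, 10.02, 9.95 and 9.82 in chow arrays 1 to 4, at 9.53, 9.44, 9.38 and 9.65 in the 5-day arrays and at 9.67, 9.66, 9.52 and 9.06 in the 14-day arrays. Every HFD array lay below every chow array, with differences of -0.37 ± 0.13 at 5 days and -0.40 ± 0.13 at 14 days (limma adjusted p = 0.387 and 0.552). Without the HFD arrays numbered 4 the 5-day difference was -0.42 ± 0.08 and passed (adjusted p = 0.0143), in a fit that called 6.62% of all genes. The 5-day arrays left in that fit all hold epididymis transcripts, so diet and these transcripts cannot be told apart there. P4ha2, a relative of P4ha1, and the lysyl oxidase gene Lox differed by 0.19 ± 0.09 and -0.49 ± 0.21 at 14 against 5 days (adjusted p = 0.999 for both).

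Of the regulators of the factors 5 of 8 were higher at 5 days (median 0.047) and 6 of 8 at 14 days (median 0.026). Hif1an, the asparagine hydroxylase that blocks the activity of the alpha subunits, differed by 0.18 ± 0.09 at 5 days and Hif3a, a related alpha subunit, by -0.16 ± 0.10 at 14 days (limma adjusted p = 0.526 and 0.723). Cited2, which competes with HIF-1 alpha for a coactivator, differed by -0.31 ± 0.18 at 14 against 5 days (adjusted p = 0.999). Arnt2, a relative of Arnt singled out after its values were seen, stood at 6.76, 7.14, 7.12 and 7.43 in chow arrays 1 to 4, at 8.94, 8.54, 9.46 and 6.76 in the 5-day arrays and at 6.997, 7.17, 6.43 and 10.24 in the 14-day arrays. It was high in the 4 arrays that hold epididymis transcripts and between 6.43 and 7.43 in the others.

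Vessel and blood genes were 4 of 8 higher at 5 days (median 0.00075) and 2 of 8 at 14 days (median -0.14), the mitochondria and autophagy list (Higd1a, Cox4i2, Lonp1 and Mxi1 tested) 3 of 4 at each (median 0.042 and 0.049), and the other targets 7 of 11 at 5 days (median 0.042) and 5 of 11 at 14 days (median -0.067). Among the latter, Bhlhe40, a repressor of the clock and of lipid genes, differed by -0.42 ± 0.16 at 5 days and 0.29 ± 0.16 at 14 against 5 days (limma adjusted p = 0.407 and 0.999), and the chemokine receptor gene Cxcr4 by -0.57 ± 0.29 at 14 against 5 days (adjusted p = 0.999).

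**Figure D5:**
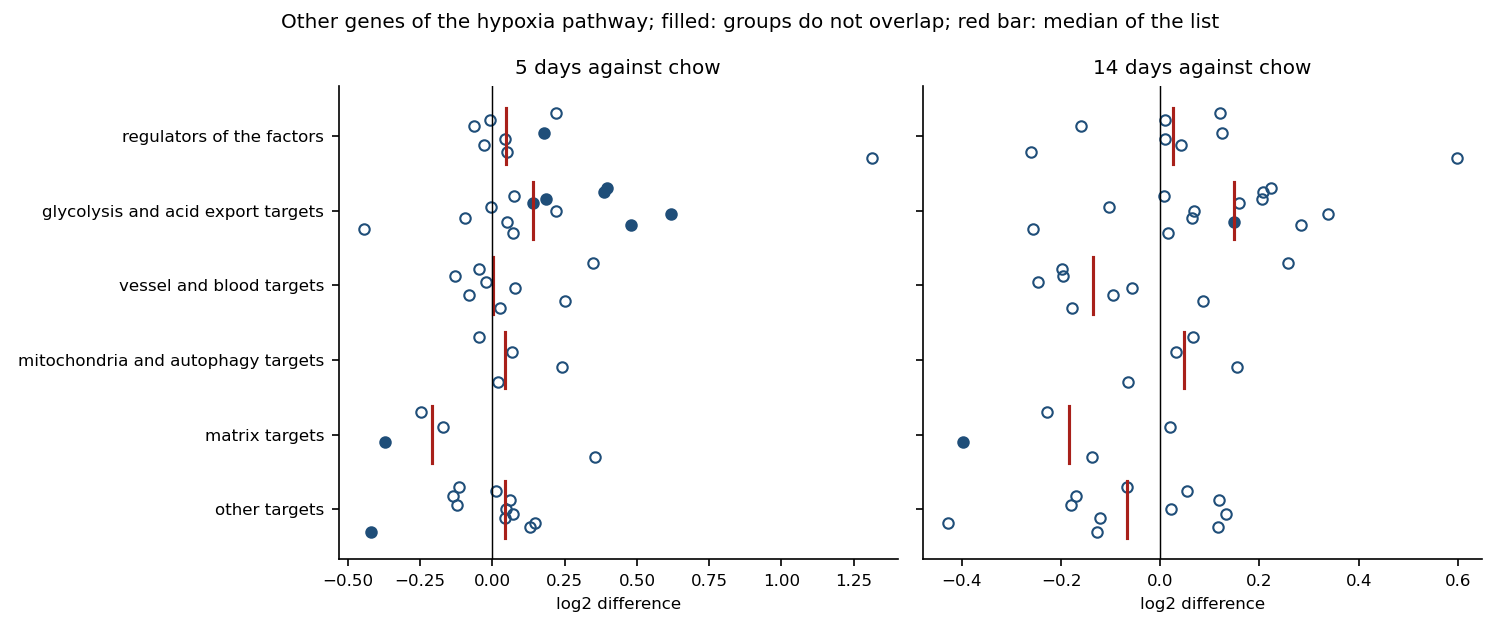
Log2 difference from chow of the 48 other pathway genes tested, by list, at 5 and 14 days, with a red bar at the median of each list and filled points where the 4 arrays of 1 group all lie above the 4 of the other. The glycolysis list has its median at 0.14 and 0.15, the matrix list at -0.21 and -0.18.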

How the data were processed

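Adipose RNA of 12 samples, 4 per group, was labelled as cRNA and hybridised to Affymetrix arrays, per the labels' protocols. The authors deposited 1 table of log2 values per probe set, with array medians from 8.09 to 8.14. The background correction, summarisation and normalisation behind it are not given in the sources used here, and array signal compresses differences at its low and high ends. Of 45098 probe sets 61 are controls, 34945 carry 1 gene symbol in the platform annotation of GEO, 932 several and 9160 none. Only those with 1 symbol were named, and 34741 matched RefSeq by Entrez identifier.

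Each gene was read from its brightest probe set. Genes whose probe set mean was above the 40th percentile (7.64) were tested in limma 3.58.1 (R 4.3.3; lmFit and eBayes with trend) with all 3 groups in 1 fit, two-sided, with Benjamini-Hochberg adjustment over all of them and calls under 0.05. Pairs of Hif1a probe sets were compared by exact permutation tests (scipy 1.17.1). The fit was tested on simulated data. Named genes were the 10 hypoxia genes, the 6 other pathway genes of smallest p per comparison and the 2 genes most correlated with each of the 10. Arnt2, Hk1, Slc2a3 and the 4 tested genes of the mitochondria and autophagy list fall outside this rule and were named after their values were seen. The members and lists were chosen with earlier results of these data known. Alternatives covered the normalisation, filter, probe set rule, variance model, array weights, marker covariates, the replicate number as a block and each array left out. The number of arrays limits the precision.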

Additional observations from a re-analysis of the deposited data

Results flagged for a closer look

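Each of the 10 hypoxia genes was checked for an array far from the other 3 of its group, in 30 groups of 4 arrays. An array was noted where its gap to the nearest other array exceeded 0.829 of the group's range, which chance gives in about 1 group in 20, and 7 groups met this. Over all 13310 genes tested, 6.0% met it in chow, 7.57% at 5 days and 9.64% at 14 days, with 5-day array 4 standing apart for 5.42% and 14-day array 4 for 7.49%. In 14-day array 4 Egln3 stood at 8.952 (the other 3 at 8.119 to 8.26), Vegfa at 11.058 (11.617 to 11.724) and Bnip3 at 14.082 (14.409 to 14.466). In 5-day array 4 Epas1 stood at 13.67 (13.191 to 13.256) and Egln3 at 7.573 (8.275 to 8.349). In chow, Slc2a1 stood at 8.869 in array 1 (9.502 to 9.576) and Egln1 at 11.111 in array 4 (11.078 to 11.079), the latter a gap of 0.97 of a very narrow range.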

How the results depend on the processing

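With every alternative tried for the 10 genes (810 values in 30 results), 733 kept their direction and their side of the threshold, 72 changed sign and 5 became calls. In 5 results the sign never changed. The cause of each change was not tested. Without the HFD arrays numbered 4 the 5-day arrays left all hold epididymis transcripts, so diet and these transcripts cannot be told apart there. The count of the 10 genes called went from 0 to 1 with array weights at 5 and 14 days (Epas1), without the HFD arrays numbered 4 at 5 days (Epas1), and with epididymis markers as a covariate at 5 days and at 14 against 5 days (Egln3). The count of the 48 other pathway genes called went from 0 to 7, 10 and 6 at 5 days, 14 days and 14 against 5 days with array weights, beside 15.1%, 22.4% and 16.6% of all genes called (14.6%, 20.8% and 12.5% of the 48). It went to 4 at 5 days and 4 at 14 against 5 days without the HFD arrays numbered 4 (8.33% of the 48, beside 6.62% and 5.43% of all genes), to 3 at 5 days and 1 at 14 against 5 days with the epididymis covariate (6.25% and 2.08%, beside 2.51% and 0.165%), and to 2 at 5 days with only the groups compared in the fit (4.17%, beside 1.6%). With each array left out it ran from 0 to 1 at 5 days (1 without 14-day array 4). Hif1a probe set disagreement stayed at 0 calls under quantile normalisation and with each array left out, where 3 arrays against 4 leave no adjusted p able to pass. With all arrays a call needs most of the tests at the smallest p.

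The following log2 differences changed sign. With the setting "array weights" they were, at 5 days Bnip3 -0.00988 and at 14 days Bnip3 0.0444, Egln3 -0.132, Ldha 0.139, Pdk1 -0.0491, Slc2a1 -0.155 and at 14 against 5 days Arnt 0.0738, Bnip3 0.0543, Egln1 0.0925, Egln3 -0.1, Ldha 0.0588, Slc2a1 -0.0462, Vegfa 0.225. With the setting "epididymis marker mean as covariate" they were, at 5 days Arnt 0.0354, Pdk1 -0.321, Vegfa 0.139 and at 14 days Bnip3 0.00922, Egln3 -0.0963, Ldha 0.0163, Pdk1 -0.0658 and at 14 against 5 days Epas1 -0.0689, Hif1a -0.000483, Pdk1 0.255. With the setting "liver marker mean as covariate" they were, at 5 days Bnip3 -0.00989. With the setting "mean of a gene's probe sets" they were, at 5 days Hif1a -0.0212 and at 14 days Egln1 -0.0139, Hif1a -0.0218 and at 14 against 5 days Epas1 -0.0439, Hif1a -0.000625. With the setting "quantile normalization" they were, at 5 days Hif1a 1416035_at minus 1427418_a_at 0.0124 and at 14 against 5 days Epas1 -0.0218. With the setting "skeletal muscle marker mean as covariate" they were, at 14 against 5 days Hif1a -0.0172. With the setting "without the high-fat arrays numbered 4" they were, at 5 days Bnip3 -0.0177, Egln1 -0.0132, Egln3 0.00892 and at 14 days Bnip3 0.0346, Egln3 -0.109, Ldha 0.0687, Pdk1 -0.13 and at 14 against 5 days Arnt 0.0917, Bnip3 0.0523, Egln1 0.0953, Egln3 -0.118, Vegfa 0.146. With each array left out in turn, they ranged, at 5 days Hif1a 1416035_at minus 1427418_a_at -0.0809 to 0.0476, Hif1a 1416035_at minus 1431981_at -0.0143 to 0.4, Hif1a 1416035_at minus 1448183_a_at -0.0671 to 0.309, Hif1a 1431981_at minus 1448183_a_at -0.103 to 0.0166, Bnip3 -0.0177 to 0.0653, Egln1 -0.0132 to 0.109, Egln3 -0.25 to 0.00892, Pdk1 -0.005 to 0.354, Slc2a1 -0.201 to 0.0714, at 14 days Hif1a 1416035_at minus 1427418_a_at -0.0139 to 0.0994, Bnip3 -0.0934 to 0.0346, Egln3 -0.109 to 0.169, Ldha -0.189 to 0.0687, Pdk1 -0.13 to 0.334, Slc2a1 -0.0421 to 0.21, at 14 against 5 days Hif1a 1416035_at minus 1427418_a_at -0.000917 to 0.112, Hif1a 1416035_at minus 1431981_at -0.119 to 0.296, Hif1a 1427418_a_at minus 1431981_at -0.137 to 0.185, Arnt -0.0542 to 0.0474, Bnip3 -0.121 to 0.00658, Egln1 -0.0634 to 0.0589, Epas1 -0.0522 to 0.116, Hif1a -0.0128 to 0.0796, Pdk1 -0.324 to 0.168, Vegfa -0.2 to 0.0586. 

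The replicate block (the replicate number of the titles) changed no call: 0 of the 10 genes and 0 of the 48 were called with it. Between arrays of the same number r of the deviations ran from -0.725 to 0.408. Arrays of unlike number were not compared, so this does not decide whether the numbers pair the samples. The numbers were not taken to pair them. Egln3 had no value with the stricter filter. Signal over background is not in the deposited table, so how near the dimmest probe sets lie to background was not tested.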
